A study of Mus musculus with 12 samples.

Results

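The genes described here were taken as genes of newly forming muscle fibres. They are 10 genes chosen by their known role, out of 38894 RefSeq genes to which the sequenced transcripts were assigned. They were Mymk and Mymx, which fuse myoblasts, the acetylcholine receptor subunit genes Chrna1, Chrnd and Chrng, the thick filament genes Myh3, Myh8 and Mybph, and the thin filament genes Tnnt2 and Actc1. No expression value was used to choose them, although earlier results from these tumors were known. All 10 were found, and 8 passed the filter on low counts (Mymk and Mymx did not). They were measured in 12 tumors by bulk poly-A RNA-seq.

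Each tumor grew from Rd76-9 cells, a murine embryonal rhabdomyosarcoma line, after injection into the flank of a C57/Bl6J mouse of WT genotype aged 8 to 12 weeks. The 4 groups held 3 tumors each, all collected on day 16. The vehicle group (m1 to m3) had saline and empty folate nanoparticles, and its treatment label also names the RCM1 nanoparticle, so it was assigned by title. The VCR group (m4 to m6) had vincristine, a drug that blocks microtubule assembly, at 0.25 mg/kg once a week. The RCM1 group (m7 to m9) had RCM1, a small-molecule inhibitor of the transcription factor FOXM1, as 8 µg in folic acid-coated nanoparticles every other day. The VCR+RCM1 group (m10 to m12) had both. All tumors came from 1 cell line and sat under the skin beside host tissue, and each tumor was from a separate mouse.

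Muscle fibres form when myoblasts leave the cell cycle and fuse. Myomaker (Mymk) lets the outer leaflets of adjoining membranes mix, and myomixer (Mymx) opens the fusion pore. New and regenerating fibres carry embryonic and perinatal myosin, a fetal acetylcholine receptor with a gamma subunit, cardiac actin and cardiac troponin T, and adult fibres replace these with fast or slow isoforms, the epsilon receptor subunit and skeletal actin. In rhabdomyosarcoma, tumor cells resemble myoblasts that start this program without completing it.

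Several of these genes lie close together in the mouse genome (GRCm38). Chrnd (chr1:87190597-87200070) and Chrng (chr1:87205811-87211835) are neighbours with a gap of 5.74 kb. Myh3 (chr11:67078273-67102291) and Myh8 (chr11:67277124-67308634) flank the adult fast myosin genes Myh2, Myh1 and Myh4, with 174.83 kb between them. Of the remaining members, Mybph (chr1:134193418-134201237) and Tnnt2 (chr1:135836315-135852268) lie on chromosome 1, Mymk (chr2:27061636-27072161), Chrna1 (chr2:73563281-73580338) and Actc1 (chr2:114047282-114052875) on chromosome 2, and Mymx (chr17:45600961-45602196) on chromosome 17. The myosins, and the actins Actc1 and Acta1, share long stretches of sequence, and kallisto divides reads that fit more than 1 of them, so low values of Myh3, Myh8 and Actc1 beside an abundant relative are uncertain.

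The 250 bases before the annotated start are shown for 4 members, chosen to set genes that peaked in the VCR tumor m4 (Chrng, Myh8) beside genes that peaked in the RCM1 tumor m9 (Mybph, Actc1). The sequences are from RefSeq GRCm38.p6 and read 5′ to 3′ on the strand of the gene. Capitals mark the E-box CAGCTG, the core of which is bound by myogenic factors such as MyoD and myogenin, the MEF2 box, which is bound by the MEF2 factors of muscle, and the CArG box, which is bound by serum response factor. The windows are chr1:87205561-87205810 on the plus strand for Chrng, chr11:67276874-67277123 on the plus strand for Myh8, chr1:134193198-134193447 on the plus strand for Mybph and chr2:114052876-114053125 on the minus strand for Actc1. The Mybph window ends inside the annotated span of the gene, because another of its transcripts begins upstream.
Chrng: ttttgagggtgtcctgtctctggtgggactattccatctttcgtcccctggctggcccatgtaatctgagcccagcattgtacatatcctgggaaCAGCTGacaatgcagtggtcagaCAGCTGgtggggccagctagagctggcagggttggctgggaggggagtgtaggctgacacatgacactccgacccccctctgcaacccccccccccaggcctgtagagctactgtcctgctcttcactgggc
Myh8: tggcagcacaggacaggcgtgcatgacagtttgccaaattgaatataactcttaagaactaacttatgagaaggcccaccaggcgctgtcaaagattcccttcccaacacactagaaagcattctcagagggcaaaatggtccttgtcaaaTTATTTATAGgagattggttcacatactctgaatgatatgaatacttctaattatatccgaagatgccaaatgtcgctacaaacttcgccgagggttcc
Mybph: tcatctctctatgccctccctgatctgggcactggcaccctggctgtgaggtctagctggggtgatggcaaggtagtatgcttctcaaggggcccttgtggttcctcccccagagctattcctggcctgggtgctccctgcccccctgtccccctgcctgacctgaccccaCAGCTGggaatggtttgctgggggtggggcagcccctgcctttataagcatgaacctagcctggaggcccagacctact
Actc1: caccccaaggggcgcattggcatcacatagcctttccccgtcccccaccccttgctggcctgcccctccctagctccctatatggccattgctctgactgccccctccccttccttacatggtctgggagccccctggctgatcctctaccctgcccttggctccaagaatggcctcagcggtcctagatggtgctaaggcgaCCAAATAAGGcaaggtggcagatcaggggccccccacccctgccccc
Promoters were given for 7 of the 10 members (Tnnt2 has 2 promoters), and both strands were searched. CAGCTG was found in 4 of the 7 members (Chrng, Mybph, Tnnt2 and Chrna1) and in 4 of their 8 promoters, against 13.0% of 32851 promoters of the same length. In Chrng its copies begin 155 and 132 bases before the start, in Chrna1 92 and 44 bases before it, and in Mybph 79 bases before it. The general E-box CANNTG, which includes CAGCTG, was found in 6 of the 7 members, in 7 of their 8 promoters and in 66.2% of all promoters. The form CACCTG was found in 2 of the 7 (Tnnt2 and Chrna1, the latter on the opposite strand), in 2 of the 8 promoters and in 17.2% of all promoters. A CArG box was found in Actc1 alone among the 7, beginning 47 bases before the start, and in 1.47% of promoters, and a MEF2 box in its usual form (either pyrimidine first and either purine last) was found in Myh8 alone, beginning 99 bases before the start, and in 2.92% of promoters. A match to these letters describes the sequence and does not show binding.

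The libraries were even in depth, at 29337835 to 32103617 estimated counts per tumor. The tumor label was checked with Des, Myod1 and Myog: in the vehicle tumors Myod1 lay between 0 and 0.0306 TPM (a level corrected for transcript length and scaled to the library total) and Myog between 0 and 0.0767 TPM, so these defining markers were close to absent there, and Des was at 4.45 to 5.88 TPM. Adult skeletal fibre RNA varied widely. The 24 adult fast fibre genes summed to 365 to 575 TPM in the vehicle tumors and to between 529.5 and 26006 TPM in the treated ones (median 3307), with m9 at 26006 and the VCR tumor m5 at 15026. In bulk RNA, fewer cells of a type and less RNA per cell cannot be told apart. The members' median log2 fold changes and the results that these tumors moved most are therefore also given without m5 and m9.

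The fusion genes were close to the detection limit in every tumor. Mymk had 0 counts in each vehicle tumor, 18, 1 and 10 counts in the VCR tumors m4, m5 and m6, 1, 2 and 2 counts in the RCM1 tumors and 0, 2 and 3 counts in the VCR+RCM1 tumors. The VCR tumors m4 and m6 stood above all others, and the VCR and RCM1 groups did not overlap with vehicle, although m5 and m7 passed by a single count. The 0 of the vehicle group was given a limit of 3 counts. Scaled for depth, the pooled Mymk counts were 9.51 times that limit with VCR, 1.63 times with RCM1 and 1.63 times with VCR+RCM1. The treated counts were taken as exact, at 29, 5 and 5, so these ratios are not lower limits of a fold change. Of the 29 VCR counts, 18 came from m4. Without m9 the RCM1 tumors held 3 counts of Mymk in all, which is at that limit. Without the count filter, edgeR called Mymk in VCR against vehicle (adjusted p = 0.0803), beside 2.16% of the 29979 genes then tested. Mymx had 3, 2 and 2 counts in the vehicle tumors, 8, 2 and 5 with VCR, 5, 4 and 7 with RCM1 and 2, 0 and 10 with VCR+RCM1. The RCM1 group alone lay above vehicle without overlap for Mymx, and the ratio of pooled counts was 2.24 with a 95% interval of 0.871 to 6.43, which includes 1 and covers counting error only. For VCR the same ratio was 2.11 (0.809 to 6.12).

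The receptor genes differed both in level and in pattern. The muscle acetylcholine receptor holds a pair of alpha subunits with a beta, a delta and a gamma subunit, and epsilon takes the place of gamma in adult fibres. Chrnd, the delta subunit gene, had the highest TPM of the members in every tumor, although in m9 Actc1 was close (43.8 against 45.7 TPM). It was at 44.3, 62.6 and 74.5 TPM in the vehicle tumors and 44.2 to 57.4 TPM in the treated ones, at percentile 81.4 of tested genes by median TPM. Chrna1, the alpha subunit gene, was at 0.976 to 3.49 TPM, or 1.31% to 7.65% of Chrnd in the same tumor (median 3.11%). Chrng, the gamma subunit gene, was at 0.295 to 0.923 TPM, or 0.616% to 1.88% of Chrnd (median 0.745%). The beta subunit gene Chrnb1, which is no member, was at 116 to 145 TPM, 1.58 to 2.82 times Chrnd. So in every tumor the order was Chrnb1, Chrnd, Chrna1 and Chrng, and the alpha subunit RNA was far below delta although the receptor carries more alpha chains.

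**Figure D1:**
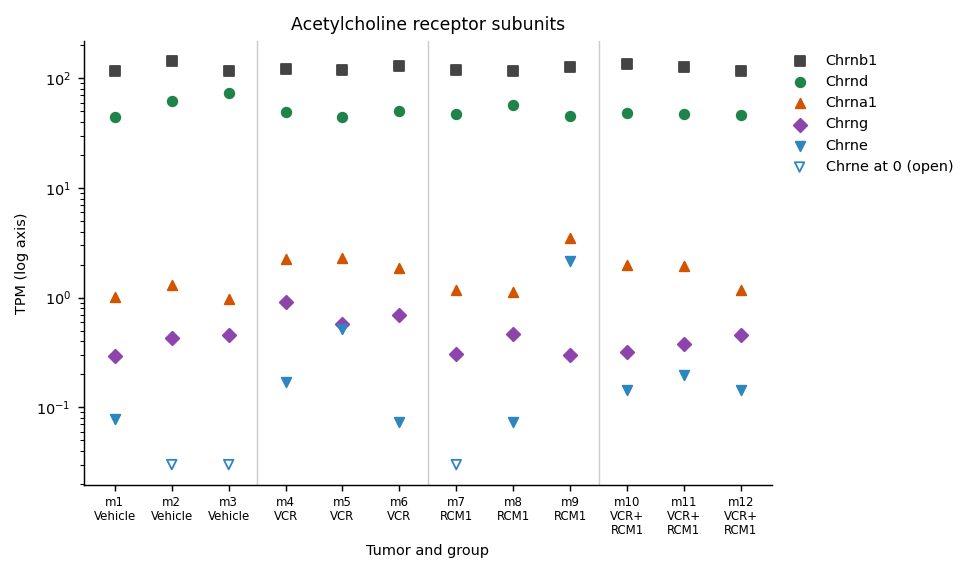
TPM of 5 acetylcholine receptor subunit genes (log axis) in each of the 12 tumors, ordered by group; open symbols at the bottom stand for Chrne at 0. Chrnb1 and Chrnd stay between 44.2 and 145 TPM in every tumor, while Chrna1 and Chrne are highest in m9 and Chrng is highest in m4.

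Chrna1 had 81.6, 97.2 and 81.0 counts in the vehicle tumors, 191, 198 and 147 with VCR, 92.5, 94.9 and 287 with RCM1 and 162, 154 and 98.4 with VCR+RCM1. All VCR tumors lay above all vehicle tumors, and m9 was the highest of the 12. The edgeR log2 fold change of Chrna1 was 1.03 ± 0.38 (SE, n = 3 per group) for VCR (adjusted p = 0.154), 0.83 ± 0.38 for RCM1 (adjusted p = 0.511) and 0.62 ± 0.38 for VCR+RCM1 (adjusted p = 0.742). Without m9 the RCM1 value was 0.11. Chrng had 10, 13 and 16 counts with vehicle, 32, 21 and 23 with VCR, 10, 16 and 10 with RCM1 and 11, 12 and 16 with VCR+RCM1. The VCR tumors lay above each of the other 9 tumors. In edgeR, Chrng differed by 0.94 ± 0.31 in VCR against vehicle (adjusted p = 0.126) and by -0.99 ± 0.31 in VCR+RCM1 against VCR (unadjusted p = 0.00876, adjusted p = 0.855), and the RCM1 value was -0.14 ± 0.33 (adjusted p = 0.930). Its pooled counts were 1.92 times those of vehicle with VCR (95% interval 1.29 to 2.90) and 0.979 times with VCR+RCM1 (0.612 to 1.57). These intervals cover counting error only, not the spread between tumors. Chrnd had 2443, 3178 and 4212 counts with vehicle, 2870, 2591 and 2730 with VCR, 2548, 3309 and 2564 with RCM1 and 2659, 2534 and 2641 with VCR+RCM1. The vehicle tumors spanned the widest range, with m1 the lowest and m3 the highest of all in CPM (counts scaled to library size). Its edgeR log2 fold changes were -0.29 ± 0.18, -0.26 ± 0.18 and -0.39 ± 0.18 in the same order (adjusted p = 0.367, 0.680 and 0.683). Although Chrnd and Chrng are neighbours, their values pointed in opposite directions with VCR.

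The embryonic myosin gene Myh3 and the perinatal myosin gene Myh8 were among the lowest tested genes, at percentiles 2.94 and 1.79 by median TPM. Myh3 had 10, 10.3 and 8 counts in the vehicle tumors, 80.6, 10.6 and 26.6 with VCR, 4, 20.1 and 11.8 with RCM1 and 7.02, 22.6 and 30.1 with VCR+RCM1. The VCR tumor m4 alone stood far above the rest, and m5 cleared the vehicle tumors by less than 1 count. The edgeR log2 fold change of Myh3 was 2.05 ± 0.74 for VCR (adjusted p = 0.146), 0.33 ± 0.79 for RCM1 (adjusted p = 0.931) and 1.06 ± 0.76 for VCR+RCM1 (adjusted p = 0.773). Without m4 the VCR value was 1.02. Myh8 had 1.01, 3.20 and 2 counts with vehicle, 49.8, 23.0 and 9.21 with VCR, 1.03, 5.27 and 50 with RCM1 and 11.2, 14.2 and 8.28 with VCR+RCM1. All 3 VCR tumors and all 3 VCR+RCM1 tumors lay above vehicle, and in the RCM1 group m7 was at the vehicle level while m9 equalled m4. In edgeR, Myh8 differed by 3.67 ± 1.17 for VCR (adjusted p = 0.114), 3.10 ± 1.21 for RCM1 (adjusted p = 0.444) and 2.34 ± 1.27 for VCR+RCM1 (adjusted p = 0.708) on the log2 scale. Without m9 the RCM1 value of Myh8 was 0.54. Pooled counts of Myh8 were 13.5 times those of vehicle with VCR (95% interval 5.92 to 37.7), 9.13 times with RCM1 (3.94 to 25.9) and 5.55 times with VCR+RCM1 (2.30 to 16.2). Without m9 the RCM1 ratio was 1.49 with an interval of 0.398 to 5.56, which includes 1, and without m5 the VCR ratio was 14.6 (6.31 to 41.3). The intervals of these pooled counts leave out the spread between tumors and cover counting error only.

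Mybph, which encodes myosin-binding protein H of the thick filament, showed the greatest fold change of the 8 tested members. It had 6.44, 0 and 0 counts with vehicle, 75.4, 672 and 75.6 with VCR, 8, 2 and 849 with RCM1 and 94.1, 91.7 and 41.6 with VCR+RCM1. All 6 tumors that had vincristine lay above vehicle, and of the RCM1 tumors m7 was slightly above m1, m8 was below m1 and m9 was the highest of all. Its edgeR log2 fold change was 7.04 ± 2.19 for VCR (adjusted p = 0.109), 7.04 ± 2.19 for RCM1 (adjusted p = 0.419) and 5.13 ± 2.20 for VCR+RCM1 (adjusted p = 0.682). Leaving out m5 and m9 moved these to 5.14 (adjusted p = 0.0230, background 1.42%), 1.28 (adjusted p = 0.894) and 5.12 (adjusted p = 0.0354, background 0.772%) in edgeR. Mybph then passed the threshold for both groups that had vincristine. However, m9 and m5 also held its highest values, and leaving out extreme values narrows the spread, so these calls are a description. Its pooled counts were 135 times those of vehicle with VCR (95% interval 61.8 to 369) and 37.0 times with VCR+RCM1 (16.7 to 102). Without m5 the VCR ratio of Mybph was 37.3 (16.8 to 103), and without m9 the RCM1 ratio was 2.48 (0.816 to 8.30). Here too the intervals cover counting error only, not the spread between tumors.

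The thin filament genes differed from each other in pattern. Tnnt2, cardiac troponin T, had 123, 75 and 41 counts with vehicle, 156, 155 and 83 with VCR, 138, 77 and 94 with RCM1 and 108, 110 and 101 with VCR+RCM1. The groups overlapped throughout, and m1 was above 6 of the treated tumors in CPM. Its edgeR log2 fold changes were 0.73 ± 0.36, 0.37 ± 0.36 and 0.39 ± 0.36 (adjusted p = 0.257, 0.784 and 0.815). Actc1, cardiac actin, had 12, 12 and 18 counts with vehicle, 135, 204 and 25 with VCR, 5, 22 and 1121 with RCM1 and 4, 141 and 12 with VCR+RCM1. The VCR tumors lay above vehicle, whereas m7 and m10 were the lowest of the 12 in CPM and m9 stood far above every other tumor. In edgeR the log2 fold changes of Actc1 were 3.10 ± 1.72 (adjusted p = 0.310), 4.70 ± 1.78 (adjusted p = 0.437) and 1.87 ± 1.72 (adjusted p = 0.812). Without m9 the RCM1 value turned to -0.069, and without m11 the VCR+RCM1 value turned to -0.87.

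**Figure D2:**
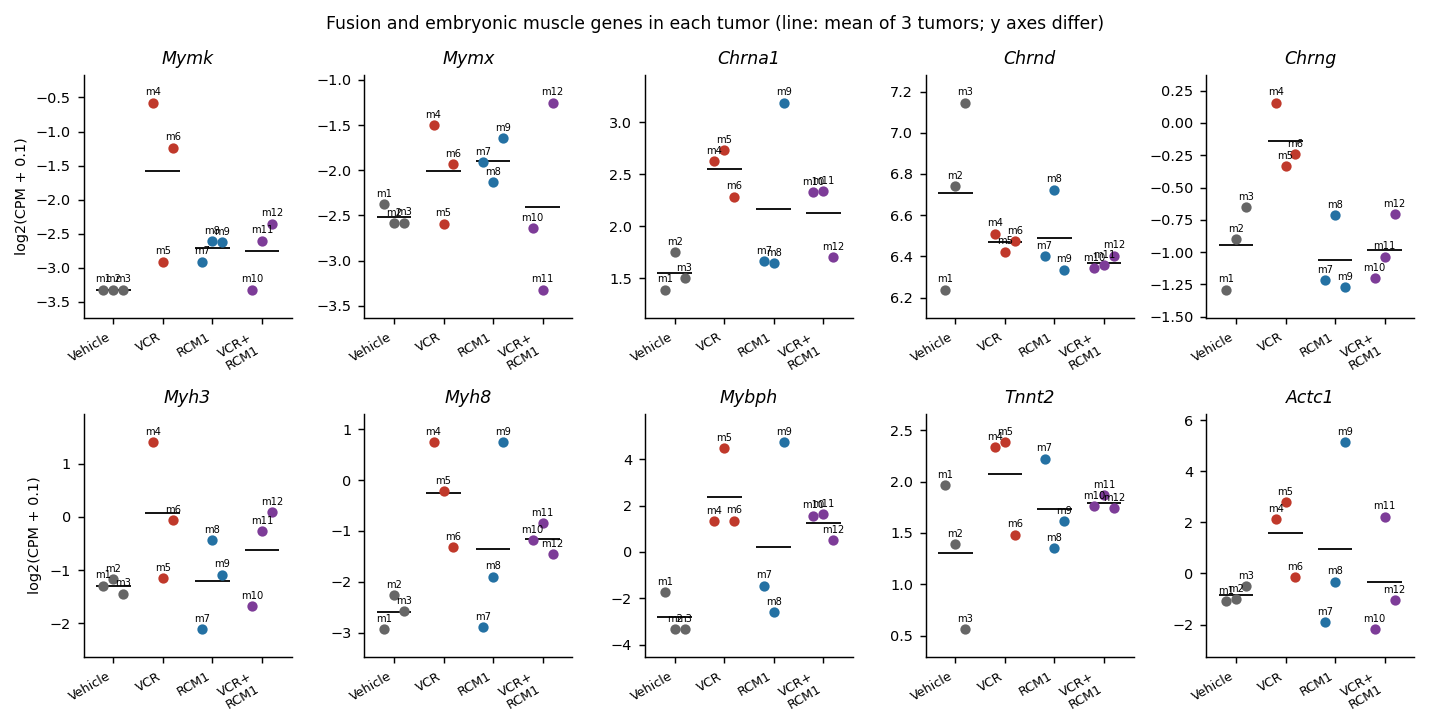
log2(CPM + 0.1) of the 10 genes in each tumor, with a panel per gene and its own y axis; points are tumors, coloured by group and named m1 to m12, and lines are means of 3 tumors. The VCR tumors all lie above the vehicle tumors for Mymk, Chrna1, Chrng, Myh3, Myh8, Mybph and Actc1.

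Across the groups, VCR against vehicle was the comparison with the most differences among these genes. The VCR tumors lay above every vehicle tumor in CPM for 7 of the 10 members, whereas 13.5% of the 17599 tested genes did so, and no member lay below. RCM1 tumors lay above vehicle for 2 of 10 (Mymk and Mymx, background 5.55%) and VCR+RCM1 tumors for 2 of 10 (Myh8 and Mybph, background 7.13%). Mymk and Mymx did not pass the count filter, so these backgrounds over tested genes do not cover them. All 8 tested members overlapped between RCM1 and vehicle, and the 7 members with VCR include Mymk. With 3 tumors against 3, an exact test of 1 gene cannot go below 0.1. At an adjusted p under 0.1, edgeR called 0 members in VCR against vehicle, where 5.54% of all tested genes were called. An unadjusted p under 0.05 was reached by 5 members in that comparison (Mybph, Myh8, Chrng, Myh3 and Chrna1), against 22.1% of all genes. The median log2 fold change of the 8 tested members was 1.54, beside 0.0017 over all genes. It ranged from 1.01 to 2.47 with 1 tumor left out and was 2.46 over 9 tested members without m5 and m9. Some of these 8 could pass the filter only through the groups in which they were high, so this median and the counts of separated members are a description.

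Other tests called some members with VCR. The DESeq2 Wald test on all 12 tumors called 2 members, Chrna1 (adjusted p = 0.0600) and Myh3 (adjusted p = 0.0647), beside 14.3% of the genes it tested, and gave no adjusted p for 5 members. DESeq2 on the VCR and vehicle tumors alone called 4 (Chrna1, Actc1, Myh3 and Myh8, background 8.13%), edgeR on those 6 tumors called 3 (Mybph, Chrna1 and Actc1, background 2.76%), and limma-voom called 0 (background 3.86%). Without m9, edgeR called 4 members (Mybph, Mymk, Chrna1 and Myh8, background 7.79%), and without m5 and m9 it called 3 (Mybph, Mymk and Myh8, background 1.42%). Each of these calls was an increase. Chrnd, Tnnt2 and Chrng were called by none of these fits, although DESeq2 on all tumors gave Chrng no adjusted p. Mymx was given no adjusted p by any of them, so it could not be called.

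**Figure D3:**
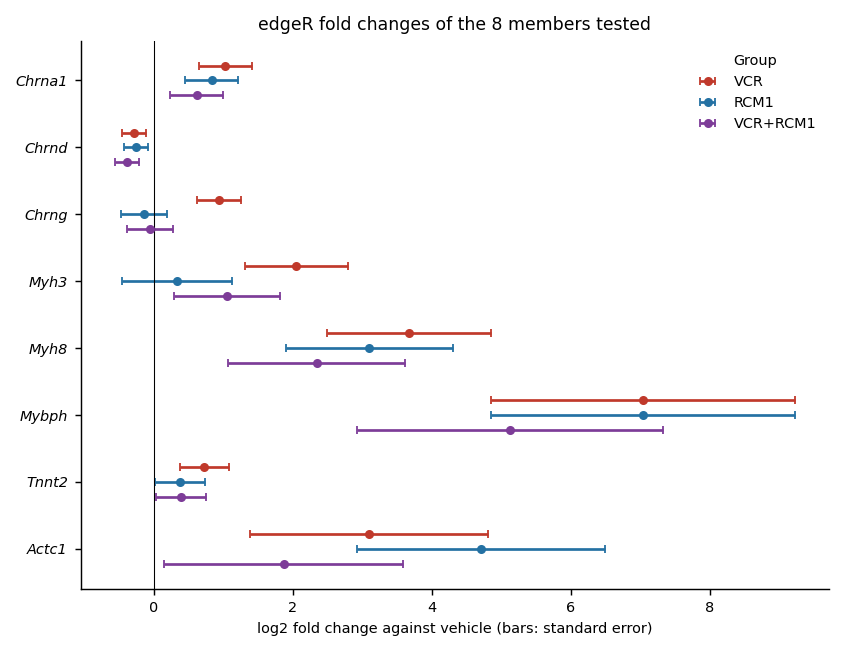
edgeR log2 fold changes against vehicle for the 8 tested members, with bars for the standard error; red is VCR, blue is RCM1 and purple is VCR+RCM1. Chrng is above 0 by more than its standard error with VCR only, and Mybph, Myh8 and Actc1 have the widest bars.

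In RCM1 against vehicle edgeR called 0 members and 0% of all genes, and 3 members had an unadjusted p under 0.05 (Mybph, Actc1 and Myh8, background 9.78%), each with its highest or next to highest value in m9. In VCR+RCM1 against vehicle it also called 0 members and 0% of all genes, with 1 member under an unadjusted 0.05 (Mybph, background 7.30%). DESeq2 on all tumors called 0 members with RCM1 (background 1.52%) and 0 with VCR+RCM1 (background 0.362%), and limma-voom called 0 in both. In both comparisons that DESeq2 fit gave no adjusted p for Mybph, Mymk and Mymx, so it could not call them. DESeq2 on the groups compared called 0 members with RCM1 (background 0.161%) and Mybph with VCR+RCM1 (adjusted p = 0.0181, background 1.15%). The median log2 fold changes of the tested members were 0.60 and 0.84, beside 0.0028 and 0.0016 over all genes. With 1 tumor left out they ranged from 0.34 to 1.09 for RCM1 and from 0.49 to 1.46 for VCR+RCM1, and without m5 and m9 they were 0.34 and 1.05. These comparisons share the vehicle tumors with the VCR comparison.

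The VCR+RCM1 tumors had lower values than the VCR tumors for all 8 tested members, with a median log2 fold change of -0.99 beside -0.0042 over all genes. They lay below VCR without overlap for 2 of the 10 members, Chrng and Chrnd (background 6.89%). For Chrnd the difference was small, at -0.10 ± 0.18 on the log2 scale (edgeR adjusted p = 0.917). edgeR called 0 members and 0% of all genes, and Chrng was the 1 member under an unadjusted 0.05 (background 5.26%). Against RCM1 alone, the VCR+RCM1 tumors overlapped for all 10 members, with 0 called in edgeR, 0 under an unadjusted 0.05 (background 2.07%) and a median of -0.17. DESeq2 on the groups compared called 0 members in either comparison (background 0.254% and 0.106%), as did DESeq2 on all tumors and limma-voom, which called 0% of genes. DESeq2 on all tumors gave Mybph no adjusted p in either comparison.

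The interaction asks whether the combination differed from the sum of the effects of each drug. Its edgeR log2 value was negative for 7 of the 8 tested members, that is, the combination was lower than the sum, with -8.95 ± 2.67 for Mybph, -5.93 ± 2.33 for Actc1, -4.43 ± 1.53 for Myh8 and -1.24 ± 0.54 for Chrna1. These 4 had an unadjusted p under 0.05 (background 13.8%), and none was called after adjustment (lowest adjusted p = 0.293, 0% of all genes called). DESeq2 on all tumors called Myh8, among 2.85% of genes, but gave no adjusted p for Mybph, Mymk and Mymx, and limma-voom called 0. Chrnd was the exception in sign, at 0.16 ± 0.25. All 4 of these genes carry the high value of m9 in the RCM1 term.

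When the 9 treated tumors were set against the 3 vehicle tumors, no member separated them fully (background 2.40% for higher). A two-sided exact permutation test of log2(CPM + 0.1) gave p = 0.0273 for Mybph, with 8 of 9 treated tumors above every vehicle tumor, and p = 0.0364 for Myh8, also with 8 of 9. For Chrna1 the exact p was 0.05 with 6 of 9 above. These p-values are unadjusted, the smallest that 220 regroupings can give is 0.00455, and 8.19% of all tested genes were higher at p under 0.05. The others had exact p-values between 0.0773 (Mymk, 8 of 9 above) and 0.518 (Chrng, 3 of 9 above).

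The members did not follow one order across the tumors. Mymk, Chrng, Myh3 and Myh8 were highest in the VCR tumor m4, which held the highest CPM of 6.53% of all tested genes. Chrna1, Mybph and Actc1 were highest in the RCM1 tumor m9, which was highest for 8.05% of all genes. Tnnt2 was highest in m5, Mymx in m12 and Chrnd in m3. As a share of the highest tumor, m9 held 11% for Mymk, 14.5% for Myh3 and 31.0% for Chrng, whereas m4 held 8.95% for Mybph and 12.1% for Actc1. Myh8 was high in both, with m9 at 99.5% of m4. The next highest tumors for Mymk were m6 and m12, for Myh3 m12 and m6, and for Chrng m6 and m5.

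Adult fibre genes gave a different order from that of Mymk, Chrng and Myh3. Of the 24 adult fast fibre genes, 23 were highest in m9 and 1, Myh1, in m5. Chrne, Acta1, Tnnt3, Myh4 and Mybpc2 each ran in the order m9, m5, m11 and m4, and the first 3 of these tumors were also the first 3 for Mybph and Actc1. Of the myogenic factors, Myog was highest in m4 and Myod1 in m5. In m9, the tumor with the most adult fibre RNA, Mymk had 2 counts against 18 in m4. Chrng had 10 against 32 and Myh3 11.8 against 80.6, and m9 held no more than 31.0% of the CPM of m4 for any of them. The part of adult fibre RNA in the values of these genes, and of Chrna1, Myh8, Mybph and Actc1, was not tested.

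**Figure D4:**
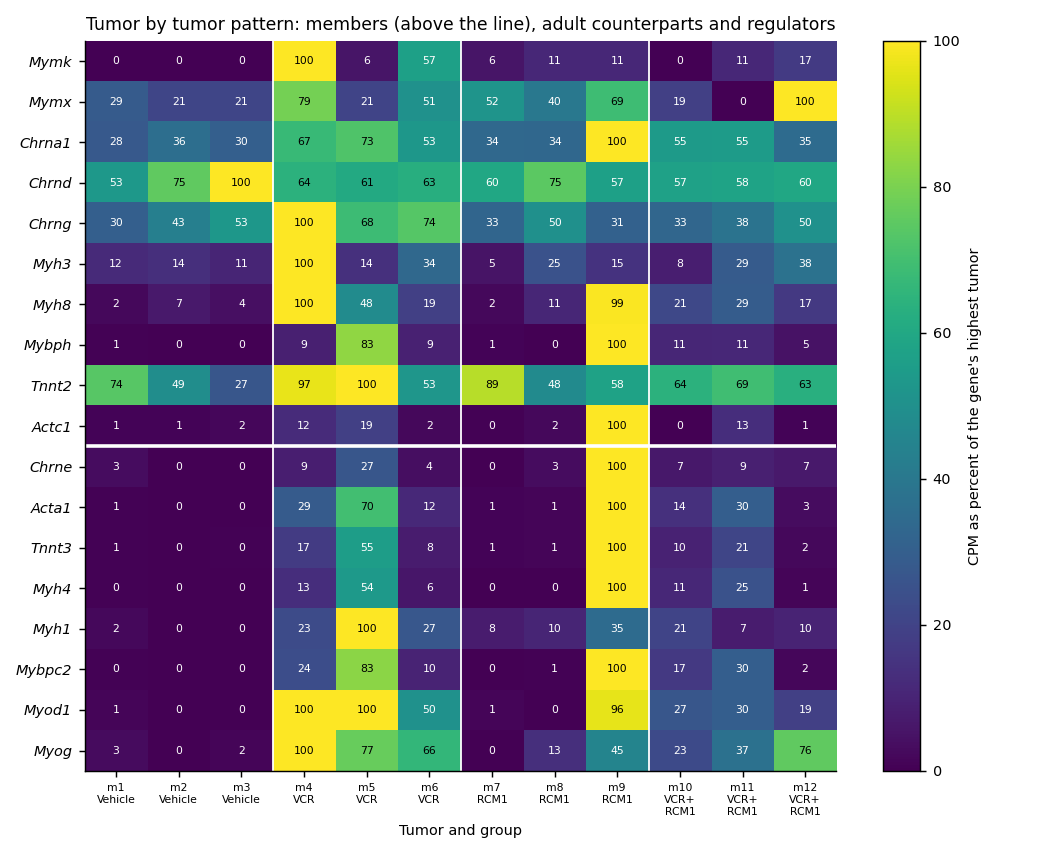
CPM of each gene as a percent of its highest tumor, for the 10 members (above the white line) and for adult counterparts and myogenic factors (below it), across the 12 tumors. Mymk, Chrng, Myh3 and Myh8 reach 100 in m4, whereas Chrna1, Mybph and Actc1 reach it in m9 together with 5 of the 6 adult counterparts.

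Set against its adult counterpart per length (TPM), the member was the lower one in most tumors for all pairs but the receptor. Mybph and Mybpc2 encode different binding proteins (H and C), so that pair does not set a fetal form beside its adult form. Chrng was above the epsilon gene Chrne in 11 of 12 tumors, at 0.295 and 0.0776 TPM in m1, 0.923 and 0.169 TPM in m4 and 0.690 and 0.0735 TPM in m6. In m9 alone the adult form was higher, with Chrng at 0.300 and Chrne at 2.16 TPM, so that Chrng was 13.9% of Chrne. Chrne was at 0 in m2, m3 and m7. Actc1 was below skeletal actin Acta1 in 11 tumors, at 0.0292% of it in m10, 0.500% in m4 and 1.18% in m9, and above it (152%) only in m3, where both were below 1 TPM. Tnnt2 was below fast troponin T, Tnnt3, in all 12 tumors, at 12.8% to 34.0% in the vehicle tumors. In the treated tumors it ran from 0.118% in m9 to 22.1% in m7, so the ranges overlapped.

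The myosins were further apart. Myh3 was below the adult gene Myh4 in 10 tumors, at 0.395% in m4, 0.0134% in m5 and 0.00765% in m9. The share was 1.38% in the vehicle tumor m1, and 9.28% and 5.82% in the RCM1 tumors m7 and m8. In m2 and m3, where Myh4 was listed at 0, Myh3 was at 0.0992 and 0.0686 TPM. Myh8 was below Myh1 in all 12 tumors, at 0.430% in m1, 27.6% in m2 and 14.2% in m3. It was at 0.142% to 2.18% in the treated tumors, a range that includes the vehicle tumor m1. Mybph was below Mybpc2, the fast fibre myosin-binding protein C, in all 12, at 3.33% to 37.1% in the treated tumors. Over the 12 tumors the median log2 ratio was 1.45 for Chrng to Chrne, -3.29 for Mybph to Mybpc2, -5.10 for Tnnt2 to Tnnt3, -5.73 for Myh8 to Myh1, -6.65 for Myh3 to Myh4 and -7.11 for Actc1 to Acta1. With 1 TPM added in place of 0.1 TPM, the value for Myh8 to Myh1 was -3.14. The others moved too, with 1 TPM added or without m5 and m9. They lay at 0.366 to 1.82 for Chrng to Chrne, -2.72 to -2.15 for Mybph to Mybpc2 and -4.85 to -3.87 for Tnnt2 to Tnnt3. For Myh3 to Myh4 they lay at -5.31 to -4.93, and for Actc1 to Acta1 at -7.11 to -6.36.

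**Figure D5:**
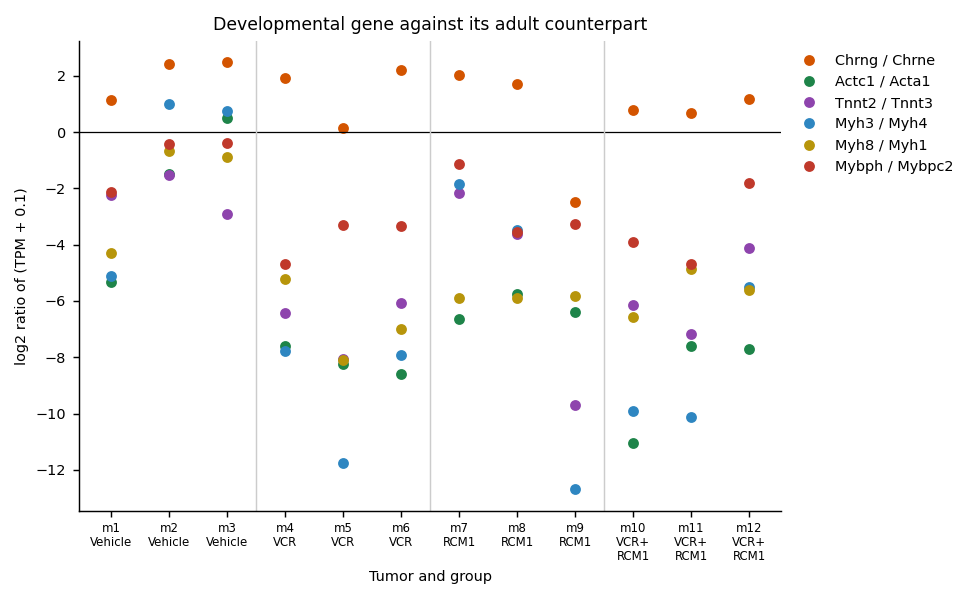
log2 ratio of TPM + 0.1 of each paired member to its adult counterpart in the 12 tumors. The line at 0 marks equal levels. Chrng to Chrne lies above 0 in every tumor except m9, and Myh3 to Myh4 reaches -12.69 in m9.

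The wider programs around these genes were read from lists of known members. Of 25 tested genes of the fusion machinery (28 listed), edgeR called 3 higher and 1 lower with VCR (2.79% and 2.75% of all genes): Rac1 (0.31 ± 0.06, adjusted p = 0.0694), a GTPase that remodels actin at the fusion site, Cav3 (7.69 ± 1.95, adjusted p = 0.0851), the muscle caveolin, Tmem182 (3.88 ± 1.13, adjusted p = 0.0992), a membrane protein of muscle, and Trio (-0.38 ± 0.09, adjusted p = 0.0843), an exchange factor for Rac1. The median of the list was 0.05, and its summed level was 1434 to 1517 TPM in vehicle and 1445 to 1593 TPM in treated tumors. The largest parts of that sum were Itgb1, Cd81, Rac1 and Bin1, each between 151 and 332 TPM. Cav3 and Tmem182 were at 0 to 0.800 TPM in the vehicle tumors. Adgrb1, Adgrb3, Fer1l5, Nphs1 and Stab2 were at no more than 0.549 TPM in any tumor. The sum thus does not stand for every gene of the list, and Mymk and Mymx were nearly absent. The count of called genes moved to 6 higher and 4 lower of 28 with DESeq2 on all tumors (background 14.3% in either direction). It was 2 higher and 0 lower of 25 in edgeR without m5 and m9 (background 1.42% in either direction). With 1 tumor left out it lay between 0 and 4 in either direction.

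Of 14 sarcomere assembly genes, 8 were higher with VCR and 0 lower, beside 2.79% and 2.75% of all tested genes, with a median of 5.96. The smallest p-values were those of Csrp3 (7.21 ± 1.08, adjusted p = 0.0504), a LIM protein of the Z-disc, Myl4 (0.86 ± 0.15, adjusted p = 0.0651), the embryonic myosin light chain, Lmod2 (6.51 ± 1.34, adjusted p = 0.0694), which lengthens thin filaments, and Smpx and Xirp2 (both adjusted p = 0.0851). Myl4 is itself a gene of developing muscle. Of 24 adult fast fibre genes 9 were higher and 0 lower, beside the same shares of all genes, with a median of 6.90, led by Myh1, Myh2, Mylpf, Tcap and Tnnc2. Of 11 myogenic regulators Myog (5.58 ± 1.12, adjusted p = 0.0694) and Myod1 (7.07 ± 1.75, adjusted p = 0.0822) were higher. Leaving out 1 tumor at a time moved the count of higher genes to between 0 and 12 for sarcomere assembly and between 0 and 24 for adult fast fibre. It was 0 for both when m2, m4 or m5 was left out. Without the VCR+RCM1 tumor m11, only 1 of all tested genes was called with VCR. With DESeq2 on all tumors 11 of 14 and 23 of 24 were higher (background 14.3% in either direction). In edgeR without m5 and m9, 12 of 14 and 22 of 24 were (background 1.42% in either direction), with medians of 5.22 and 5.74.

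With RCM1 the median log2 fold change in edgeR was 5.49 for the sarcomere assembly genes and 6.78 for the adult fast fibre genes, with 0 called. Without m5 and m9 these medians were 1.19 and 1.12, again with 0 called (background 0%). DESeq2 on all tumors called 11 of 14 and 20 of 24 higher with RCM1, where 1.52% of all genes were called. With VCR+RCM1 the edgeR medians were 4.71 and 5.40 with 0 called. Without m5 and m9 edgeR called 10 of 14 and 18 of 24 higher (background 0.772%), and DESeq2 on all tumors called 6 and 7 (background 0.362%). So the calls in these lists depended on the test with RCM1, and on the test and on m5 and m9 with VCR+RCM1.

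Further muscle lists were smaller. Of 9 further synapse genes 0 were called in any comparison with vehicle by edgeR, the lowest p-values being those of Colq, which anchors acetylcholinesterase (3.06 ± 0.94 with VCR, adjusted p = 0.106), and Ncam1 (0.45 ± 0.16 with RCM1, adjusted p = 0.433). Of 7 genes that respond to denervation, Trim63, an E3 ligase of muscle atrophy, was higher with VCR (5.54 ± 1.62, adjusted p = 0.0994). Of 5 slow fibre genes 2 were higher with VCR, Casq2 (2.15 ± 0.44, adjusted p = 0.0694), a calcium store protein, and Myoz2 (4.73 ± 0.96, adjusted p = 0.0694), a Z-disc protein, beside 2.79% of all genes, and of 5 cardiac genes Nppb was (2.26 ± 0.60, adjusted p = 0.0871). By edgeR on all 12 tumors, where 0% of all genes were called in RCM1 or VCR+RCM1 against vehicle, these lists had 0 calls there too.

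Markers of other tissues were read beside Actc1, Tnnt2 and Mybph. The 9 cardiac genes summed to 29.0 to 39.3 TPM over the 12 tumors, and Myh6, a defining cardiac myosin, was at 0 to 0.0580 TPM and Myl7, the atrial light chain, at 0 to 0.124 TPM, while Actc1 ranged up to 43.8 TPM. Most of that sum came from Nkx2-5, a transcription factor of the heart, at 19.2 to 29.9 TPM, with Tbx20, another, at 3.02 to 6.22 TPM and Tnni3, cardiac troponin I, at 2.30 to 6.86 TPM. The part of these cardiac transcripts in the values of Actc1 and Tnnt2 was not tested. The 6 smooth muscle genes summed to 72.3 to 130 TPM with 0 called, the lowest p-values being those of Lmod1 and Acta2 (both adjusted p above 0.79). The 6 adipocyte genes summed to 0.450 to 136 TPM with 0 called, all 6 highest in the vehicle tumor m2, and the lowest p-values were those of Plin1 and Lep with RCM1. Their median log2 fold changes were -0.60 with VCR, -3.12 with RCM1 and -1.57 with VCR+RCM1, all 6 being negative in each, and their part in the muscle values was not tested. The keratinocyte genes found summed to 3.47 to 4.66 TPM, with 0 called of the 1 tested, Krt10.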

How the data were processed

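Tumor RNA from 12 tumors (4 groups of 3, grouped by title) was sequenced from poly-A libraries. The authors quantified reads with kallisto on the GRCm38 transcriptome (kallisto version not given in the sources used here) and compared groups with DESeq2. The deposited files give estimated counts per RefSeq transcript, not normalized, together with TPM values, which the authors' run of kallisto scaled to transcript length and library total, and transcript lengths. Here both were summed per gene (120289 of 120299 transcripts matched to 38894 genes), and the summed estimated counts were rounded. edgeR 4.0.16 (quasi-likelihood F test, TMM, filterByExpr at a minimum count of 10, all 12 tumors in one fit) tested 17599 genes, with Benjamini-Hochberg adjustment over all of them and a threshold of 0.1. The fold change is on the log2 scale, and its SE was taken from the F statistic. Exact permutation tests used log2(CPM + 0.1). DESeq2 1.42.0 and limma 3.58.1 (voom) were alternatives, as were other filters, scalings and omitted tumors. P-values measure the spread between tumors. Total counts of 29337835 to 32103617 per tumor make 1 count about as precise in every tumor, and intervals (95%, exact) cover counting error only. Scripts were tested on simulated data. The members and all lists were chosen with earlier results of these data known. The named genes are every member, the adult counterparts, the tumor markers and, of each other list, up to 5 called genes by smallest p, or otherwise 2. Counts and medians of the lists and members without single tumors or without m5 and m9, DESeq2 calls in the lists and pooled ratios without m5 and m9 were added after seeing the data. Loricrin was not found by symbol among the keratinocyte genes. Promoter sequences are RefSeq's.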

Additional observations from a re-analysis of the deposited data

How the results depend on the processing

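No paired analysis was possible because the tumor numbers are unique and no group shares them with another. The number of members called in VCR against vehicle was 0 in edgeR on all tumors (5.54% of all tested genes). In edgeR it was 2 without a filter (2.16%), 1 at a mean of at least 50 counts (1225 of 13077 genes) and 3 on the groups compared alone (2.76%). It was 3 without m5 and m9 (1.42%) and 0 to 4 when 1 tumor was left out. With DESeq2 it was 2 on all tumors (14.3%) and 4 on the groups compared (8.13%). In VCR+RCM1 against vehicle the number was 1 with DESeq2 on the groups compared (1.15%) and 1 in edgeR without m5 and m9 (0.772%). The interaction had 1 with DESeq2 on all tumors (2.85%). For the other comparisons it was 0 under every alternative run, but DESeq2 on all tumors gave Mybph no adjusted p in any comparison. The members with an exact permutation p under 0.05 in 9 treated against 3 vehicle tumors numbered 2, and 0 with 1 CPM added, 1 in TPM, 1 without m5 and m9, and 0 to 3 with 1 tumor left out. The log2 ratio of Myh8 to Myh1 was -3.14 with 1 TPM added, and the other median ratios changed in size too, with no change of sign. Directions reversed for Actc1 with RCM1 without m5 and m9 (-0.072). With 1 tumor left out, ranges that crossed 0 were -0.069 to 5.28 for Actc1 with RCM1, -0.87 to 2.41 for Actc1 with VCR+RCM1, -0.40 to 0.054 for Chrng with RCM1, -0.24 to 0.15 for Chrng with VCR+RCM1 and -0.24 to 0.73 for Myh3 with RCM1. The cause was not tested. Over all genes, the 975 called with VCR became 0 to 1998 with 1 tumor left out, 2214 with DESeq2 on all tumors and 253 without m5 and m9. The count was 0 without m2, m4 or m5, and 1 without m11, a VCR+RCM1 tumor outside that comparison. Mymk and Mymx had too few counts for a stable fold change.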
